A study of Mus musculus with 20 samples.

Results

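Neurospheres are free-floating clusters that neural stem and progenitor cells form in culture, and replating their cells gives a second sphere round. The comparison described here sets Egfl7 knockout against wild type in second-round hippocampal spheres, 8 of the 20 libraries of the series. Per the labels, the 4 knockout libraries (replicates 1, 4, 7 and 8) and the 4 wild-type libraries (replicates 2, 3, 5 and 6) came from male C57BL6 donors, and all were taken at culture day 5 without treatment. Donors were adult, 8 to 12 weeks old, and cells of both genotypes grew in B27-supplemented medium with EGF and FGF at 20 ng/ml. The titles number the mice, so replicates were taken as separate animals. The labels used here name neither the deleted part of Egfl7 nor the cells of the donors that carried the deletion. Genes with at least 1 RPKM (a read count scaled to gene length and library depth) in 4 or more of the 8 libraries were fitted, which kept 13615 of 36724 genes. Of these, 11934 were protein-coding genes, 741 lncRNA genes and 339 microRNA genes.

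The protein encoded by Egfl7 is secreted and carries EGF-like domains. It is made mainly by endothelial cells, is also made by neural stem cells, and binds Notch receptors. Notch signalling holds neural stem cells of the hippocampus in an undifferentiated and often quiescent state, and a stem cell that leaves quiescence first loads the Mcm helicase onto its DNA and later passes through mitosis. In culture, EGF and FGF drive this entry into the cycle, while the cyclin-dependent kinase inhibitor p21, encoded by the p53 target Cdkn1a, holds it back.

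The libraries held about 17800000 to 31200000 mapped reads, as worked out from the smallest steps between values, and values above 0 for 20640 to 22204 genes. The shallowest were knockout replicate 7, with about 17800000, and knockout replicate 8, with about 20300000. The stem cell factor Sox2 was present in all libraries, at 234 ± 55.1 RPKM in knockouts and 267 ± 43.3 RPKM in wild types (SD, n = 4 each). Of 19 endothelial markers 1 reached the filter, the glucose transporter Slc2a1, and Cdh5 and Sox17 were listed at 0 throughout. The summed endothelial list, which also holds Egfl7, lay between 19.9 and 25.5 RPKM in knockouts and between 18.6 and 27.2 RPKM in wild types. Most of this sum was Slc2a1 alone, at 18.4 to 23.2 RPKM in knockouts and 15.3 to 23.1 RPKM in wild types. Of 20 microglia and macrophage markers 8 were listed at 0 in all 8 libraries, Cx3cr1 and C1qa among them, with sums of 51.5 to 77.3 RPKM in knockouts and 55.0 to 82.6 RPKM in wild types. The first principal component held 56.7% of the variance of all genes tested. Knockout replicates 1 and 7 and wild type replicate 2 had positive scores on it, and the other 5 libraries had negative ones.

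Egfl7 itself (chr2:26581028-26592682, plus strand, GRCm38) was listed at 0 RPKM in all 4 knockouts, where 3 reads would have given 0.118, 0.127, 0.207 and 0.181 RPKM. The wild types had 1.16, 1.05, 1.59 and 0.996 RPKM, or about 27, 22, 38 and 21 reads. These reads and the 3-read values assume a counted length of 816 bases. That length was chosen because it best turned the 4 wild-type values into whole reads, so both are approximate. The groups did not overlap (difference of mean log2(RPKM + 1) -1.13, exact two-sided permutation p = 0.0286, the smallest that 4 against 4 libraries allow). Its level was low in wild types too, so that it passed the filter in too few libraries to enter the fits across genes.

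**Figure D1:**
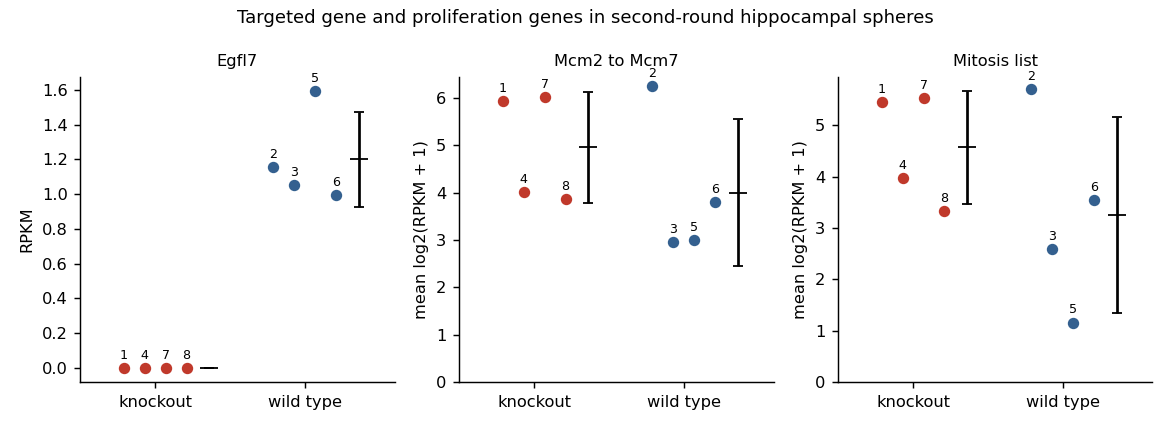
Egfl7 in RPKM (left), and the mean log2(RPKM + 1) of Mcm2 to Mcm7 (middle) and of the 39 genes of the mitosis list (right), for each library of second-round hippocampal spheres; points carry the replicate number, and bars show the mean and SD. Egfl7 was 0 in all 4 knockouts and 0.996 to 1.59 RPKM in wild types, while both proliferation means overlapped between the genotypes.

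Proliferation differed widely among the libraries of each genotype. The 6 subunits of the Mcm2 to Mcm7 helicase, which unwinds DNA at replication forks, had a mean log2(RPKM + 1) of 5.93, 4.01, 6.01 and 3.87 in the knockouts. In the wild types it was 6.25, 2.96, 2.99 and 3.81. Knockout replicates 1 and 7 were high, and wild type replicate 2 alone was high among wild types. The knockout mean stood 0.95 above that of the wild types, and the groups overlapped (exact two-sided permutation p = 0.343). The difference lay between 0.60 and 0.63 when knockout replicate 1 or 7 or wild type 3 or 5 was left out, and was 1.70 without wild type 2. Mcm5 showed the range, with 83.4, 13.3, 81.4 and 15.1 RPKM in knockouts and 103, 3.63, 3.77 and 12.5 RPKM in wild types. In such bulk libraries, fewer cycling cells and less RNA per cycling cell cannot be told apart.

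All 39 genes of the mitosis list stood higher in the knockouts, with a median log2 difference of 1.34. Across all 13615 genes 6609 stood higher, with a median of -0.01. The mean of the mitosis list was 5.46, 3.98, 5.53 and 3.32 in knockouts and 5.72, 2.59, 1.16 and 3.54 in wild types on the log2 scale, and the groups overlapped. Its median was 2.19 without wild type replicate 2 and 0.61 without wild type replicate 5. DNA replication genes outside the Mcm family also stood higher in 39 of 39, with a median of 0.59. This median was 1.15 without wild type replicate 2, 0.89 without knockout 8, and 0.30 to 0.37 when knockout 1 or 7 or wild type 3 or 5 was left out. An example is Rrm2, the regulated subunit of ribonucleotide reductase, at 79.7, 16.6, 86.5 and 14.7 RPKM in knockouts and 105, 4.80, 4.70 and 11.7 RPKM in wild types. Its high libraries were those with a high Mcm mean. No member of either list passed the test described next.

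Because of this spread, each gene was fitted with limma without a covariate and again with the Mcm mean of the library as covariate. The covariate fit compares the genotypes at an equal Mcm mean and lowered the median standard error of a log2 difference to 0.14, against 0.18 without it. It leans on wild type replicate 2, the only wild type with a Mcm mean above 4.01, so several values are also given without that library. With the covariate the DNA replication median was -0.08, with 13 of 39 higher, while 38 of 39 mitosis genes still stood higher with a median of 0.31. That mitosis median was 0.097 without knockout replicate 4, 0.039 without wild type 5 and 0.48 without wild type 6.

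Each fit called 1 gene higher in the knockouts at an adjusted p below 0.05 (0.00734% of genes tested) and 0 lower (0%), by limma with Benjamini-Hochberg adjustment over all genes tested. Without the covariate, 138 genes stood higher (1.01%) and 78 lower (0.573%) at an unadjusted p below 0.05. With the covariate it was 318 higher (2.34%) and 285 lower (2.09%). In both directions together these were 216 genes (1.59%) and 603 genes (4.43%), where an even spread of p-values would put 681. The count of 216 rested on wild type replicate 2, without which it was 1177; the covariate fit then gave 689. Of all genes tested, 81 did not overlap between the groups and stood higher in knockouts (0.595%), and 52 did so and stood lower (0.382%), 0.977% in all.

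**Figure D2:**
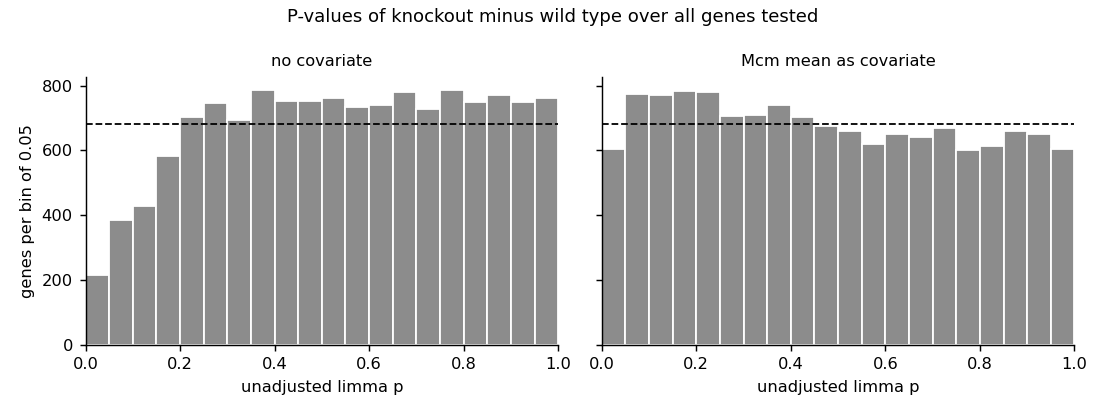
Unadjusted two-sided limma p-values of knockout minus wild type over 13615 genes, in bins of 0.05, without a covariate (left) and with the Mcm mean as covariate (right); the dashed line marks an even spread, 681 genes per bin. The lowest bin held 216 genes without and 603 genes with the covariate, both under the line.

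The called gene was the microRNA gene Mir6919, named because it was the only call and after its values were seen. It lies within the glycosyltransferase gene Mgat4b on the same strand. It had 4.18, 3.14, 4.89 and 4.68 RPKM in knockouts and 0 in all 4 wild types (log2 difference 2.37, SE 0.16, adjusted p = 0.00339 by limma; 2.34 and 0.00676 with the covariate). These values come from 3, 2, 2 and 2 reads in the knockouts, 9 in all, and 0 in the wild types. The filter on low values admitted the gene only through the 4 knockouts, the group in which it is high, so a difference was built into its selection and its p is given as no support. No library held more than 3 reads, so no fold change is given, and the fitted difference depends on the pseudocount. The limma error does not allow for counting at such depth. Its host Mgat4b had 33.0 to 44.4 RPKM in knockouts and 34.3 to 42.6 RPKM in wild types. The deposited microRNA values equal reads divided by the length of each mature sequence, while the sequenced reads were 100 bases long, so a read assigned here is longer than the mature microRNA.

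Other microRNA genes of small p were also of a few reads, and Mir344i and Mir3104 met the filter only through the 4 wild types, in which they are high, so their p-values support nothing either. Mir344i had 0 reads in knockouts and 2, 2, 4 and 1 in wild types (adjusted p = 0.129), and Mir3104, within Brsk2, had 0 in knockouts and 1, 1, 2 and 1 in wild types (adjusted p = 0.129). Mir344 had 1, 4, 2 and 3 reads in knockouts and 0, 1, 0 and 0 in wild types (adjusted p = 0.998). Mir344 and Mir344i belong to 1 family, and miR-344-5p and miR-344i share a stretch of sequence. How reads in that stretch were split between the genes is uncertain. Some mature sequences (RefSeq, GRCm38.p6) are printed to show how short the counted features are and how alike miR-344i and miR-344-5p are. The seed, bases 2 to 8, is in capitals.
mmu-miR-6919-5p: uAGGCCACuggagguggaauugu
mmu-miR-6919-3p: gCUCCUCCuccuggcccacag
mmu-miR-344i: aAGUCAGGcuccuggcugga
mmu-miR-344-5p: aGUCAGGCuccuggcuagauuccagg
The seeds of miR-344i and miR-344-5p are offset by 1 base of a shared stretch, and miR-6919 shares neither. The other mature product of Mir344, miR-344-3p, is not printed and lacks that stretch, so the likeness does not cover reads assigned to it.

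No protein-coding gene passed in either fit. The following genes had the smallest p-values or were the leading members of their lists, and their values describe these 8 libraries. Adjusted p without the covariate was 0.841 for Ano3 and above 0.99 for each of the other genes named. With it, the adjusted p was 0.269 for Psrc1, 0.511 for Ano3 and at least 0.632 for the others.

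Psrc1, a microtubule-associated protein of the mitotic spindle (chr3:108383804-108388231, plus strand), had the smallest p of the named genes with the covariate. It had 101, 77.4, 101 and 68.9 RPKM in knockouts and 69.7, 25.9, 29.2 and 40.4 RPKM in wild types. The groups met only at wild type replicate 2, which had 69.7 RPKM against 68.9 in knockout replicate 8. The log2 difference was 1.15 (SE 0.30) without and 0.83 (SE 0.11) with the covariate.

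Ano3, a membrane protein of the anoctamin family (chr2:110655201-110950395, minus strand), had 15.1, 15.3, 17.1 and 13.6 RPKM in knockouts and 9.57, 7.96, 7.19 and 9.31 RPKM in wild types. The groups did not overlap (log2 difference 0.78, SE 0.13, and 0.70, SE 0.11, with the covariate). Ano3 varied little with the Mcm mean, by 0.08 per log2 unit of it. Svop, a membrane protein related to synaptic vesicle transporters, had 34.8, 23.9, 27.8 and 35.6 RPKM in knockouts and 17.3, 15.2, 20.4 and 21.0 RPKM in wild types (log2 difference 0.69 in both fits). Slc19a2, a thiamine transporter, and Dcxr, a carbonyl reductase, likewise did not overlap, with lowest knockouts of 16.2 and 48.2 RPKM and highest wild types of 14.5 and 39.8 RPKM.

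Ccng1, which encodes the p53-induced cyclin G1 (chr11:40748552-40755315, minus strand), had 362, 352, 380 and 375 RPKM in knockouts and 294, 248, 228 and 251 RPKM in wild types. All knockouts were above all wild types (log2 difference 0.53, SE 0.11, and 0.47, SE 0.09, with the covariate). Cdkn1a, which encodes the cyclin-dependent kinase inhibitor p21, had 62.3, 65.5, 83.5 and 69.7 RPKM in knockouts and 45.3, 34.0, 47.0 and 51.1 RPKM in wild types (0.66, SE 0.15, and 0.61, SE 0.15, with the covariate). These groups did not overlap either. Fas, a death receptor, had 11.2, 17.5, 16.6 and 30.8 RPKM in knockouts and 6.40, 10.5, 14.7 and 13.7 RPKM in wild types (0.67, SE 0.33, and 0.96, SE 0.23, with the covariate), and its groups overlapped.

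**Figure D3:**
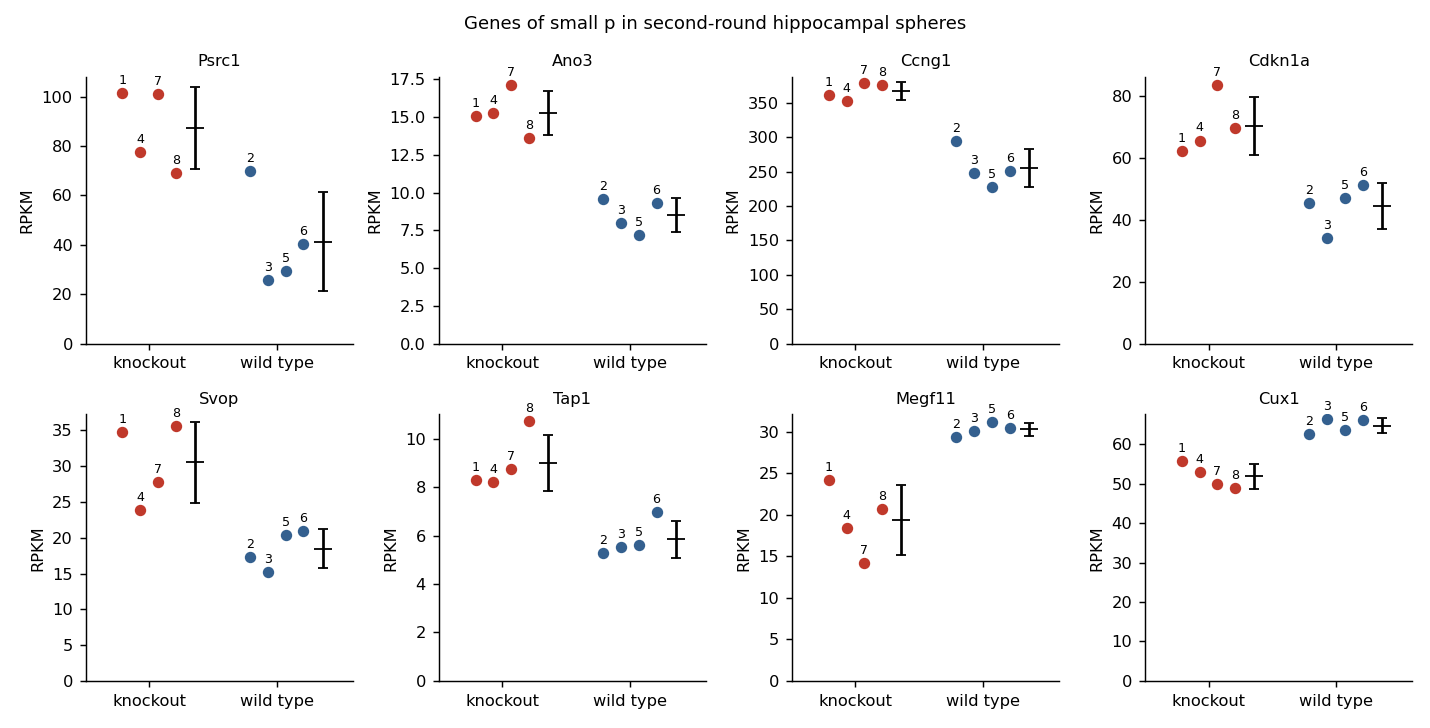
RPKM of 8 genes of small p in each library of second-round hippocampal spheres; points carry the replicate number, and bars show the mean and SD of 4 libraries. Knockouts lie above wild types without overlap for Ano3, Ccng1, Cdkn1a, Svop and Tap1 and below them for Megf11 and Cux1, while Psrc1 overlaps at wild type replicate 2; no gene shown passed the adjusted test.

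Of the 23 p53 target genes tested, 19 stood higher in knockouts, with a median log2 difference of 0.27, and 22 of 23 did so with the covariate, with a median of 0.20. Across all genes, 48.5% stood higher without and 42.3% with the covariate. In both fits 5 of the 23 were higher at an unadjusted p below 0.05 and 0 were lower. Of all genes tested, 1.01% were higher at that threshold without and 2.34% with the covariate. The list was chosen with earlier results of these data known, so these counts are descriptive. Without overlap stood 4 of the 23, or 17.4%, against 0.595% of all genes tested that were higher without overlap. They were Ccng1, Cdkn1a, Polk and Mdm2, the last 2 named after their values were seen. Polk, a DNA polymerase that copies past lesions, had 10.6, 10.8, 10.8 and 12.7 RPKM in knockouts and 8.12, 7.80, 8.43 and 9.81 RPKM in wild types. Mdm2, the ubiquitin ligase that degrades p53, had 61.6, 56.9, 54.1 and 51.7 RPKM in knockouts and 50.7, 48.9, 49.4 and 51.5 RPKM in wild types, a narrow gap. The mean of the 23 genes on the log2(RPKM + 1) scale was 5.20, 5.19, 5.19 and 5.20 in knockouts and 4.98, 4.81, 4.88 and 5.07 in wild types. The knockouts thus lay within 0.01 of each other in this mean while their Mcm means spanned more than a log2 unit. Leaving out 1 library at a time kept the median between 0.20 and 0.29 without and between 0.16 and 0.26 with the covariate.

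Upstream sequence is shown for Ccng1 and Cdkn1a, the leading p53 targets, and for Mcm6 as the Mcm gene with the most matches, each as the 250 bases before a RefSeq start (GRCm38.p6), with motif matches on either strand in capitals. Capitals mark the p53 half-site in the first pair and the E2F motif TTTNNCGC in Mcm6, where 2 of 3 matches overlap on opposite strands.
Ccng1 chr11:40755287-40755536, minus strand: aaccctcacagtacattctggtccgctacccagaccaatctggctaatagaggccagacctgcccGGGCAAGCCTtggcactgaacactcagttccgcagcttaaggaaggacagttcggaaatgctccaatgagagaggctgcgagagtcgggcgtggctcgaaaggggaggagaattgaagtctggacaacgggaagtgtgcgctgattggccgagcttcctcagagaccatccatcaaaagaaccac
Cdkn1a upstream start, chr17:29090729-29090978, plus strand: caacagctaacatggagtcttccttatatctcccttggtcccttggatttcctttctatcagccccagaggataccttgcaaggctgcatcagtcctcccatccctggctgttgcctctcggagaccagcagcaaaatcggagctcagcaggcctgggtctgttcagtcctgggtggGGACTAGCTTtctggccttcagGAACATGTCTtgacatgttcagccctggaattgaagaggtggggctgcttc
Mcm6 chr1:128359706-128359955, minus strand: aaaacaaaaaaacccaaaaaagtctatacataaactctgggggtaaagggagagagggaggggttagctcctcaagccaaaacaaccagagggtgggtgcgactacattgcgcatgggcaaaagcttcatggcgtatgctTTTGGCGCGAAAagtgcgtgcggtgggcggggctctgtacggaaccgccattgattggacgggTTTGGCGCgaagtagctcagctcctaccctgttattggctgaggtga
Over windows of 300 bases around a start, 10 of 22 windows of p53 targets held the p53 half-site, against 8.36% of all 32851 windows. Genes with several starts, such as Aen and Bbc3, gave several windows. The list was made of known p53 targets, so this share is given as no support. A pair of half-sites at most 13 bases apart was in the upstream Cdkn1a window and in 0.0731% of all windows. The sequence before the downstream Cdkn1a start, chr17:29093519-29093768, held 0 half-sites and is not shown. The E2F motif was in 4 of 6 Mcm windows and in 5.17% of all windows. Mcm7 gave several of these 6 windows and Mcm4 gave none, so Mcm4 was not searched. A match describes these letters only.

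Some genes of small p belong to the immune response. Tap1, a subunit of the peptide transporter of class I antigen presentation, had 8.31, 8.22, 8.75 and 10.7 RPKM in knockouts and 5.28, 5.54, 5.59 and 6.95 RPKM in wild types, without overlap (log2 difference 0.55, SE 0.14, and 0.59, SE 0.14, with the covariate). Nmi, an interferon-induced partner of STAT proteins, had 8.23, 7.04, 9.04 and 5.76 RPKM in knockouts and 5.48, 3.65, 3.05 and 4.48 RPKM in wild types, also without overlap. The interferon-induced Ifi27l2a had 4.64, 6.82, 5.84 and 10.5 RPKM in knockouts and 3.56, 2.44, 2.28 and 4.39 RPKM in wild types, again with all knockouts above. Of 16 interferon-stimulated genes tested, 15 stood higher, with a median of 0.30, and with the covariate 14 did so, with a median of 0.32 (0.59 without wild type replicate 2). Without knockout replicate 8 the median was 0.17 in both fits, and without wild type 3 it was 0.18 in the fit without the covariate. Of the 16, 1 was higher and 1 lower at an unadjusted p below 0.05 in each fit, and none of the 16 was free of overlap. The shares of all genes tested at that threshold were 1.01% higher and 0.573% lower without the covariate. With it they were 2.34% and 2.09%, and 0.977% of all genes tested were free of overlap. With the covariate the leading member was Ddx58, the cytosolic RNA sensor RIG-I, at 5.29, 7.08, 4.92 and 8.38 RPKM in knockouts and 3.71, 5.52, 4.41 and 4.64 RPKM in wild types (0.55, SE 0.14). Stat2, a transducer of the interferon signal named after its values were seen, stood lower, at 6.16, 6.03, 7.84 and 8.02 RPKM in knockouts and 10.8, 11.8, 7.30 and 9.27 RPKM in wild types. In the class I list 10 of 14 stood higher (median 0.20), and 12 of 14 with the covariate (median 0.12). Leaving out 1 library gave class I medians from 0.080 (without wild type replicate 5) to 0.29 without the covariate, and from 0.072 (without knockout 4) to 0.22 (without knockout 8) with it. The summed microglia and macrophage markers overlapped between the genotypes, as given above, and the part of such cells in these values was not tested.

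Among genes that stood lower, Megf11, a membrane protein with many EGF-like domains, had 24.2, 18.4, 14.2 and 20.7 RPKM in knockouts and 29.4, 30.1, 31.2 and 30.4 RPKM in wild types (log2 difference -0.64, SE 0.15, and -0.62, SE 0.16, with the covariate). Cux1, a homeodomain transcription factor, had 55.7, 53.1, 49.9 and 49.0 RPKM in knockouts and 62.6, 66.5, 63.6 and 66.3 RPKM in wild types (-0.32, SE 0.08, and -0.31, SE 0.08). Neither overlapped, and the wild types lay close together in both. Tbcb, a tubulin folding cofactor, and Sgce, a sarcoglycan of the cell membrane, stood lower by -0.36 (SE 0.08) and -0.54 (SE 0.13) with the covariate. Trf, which encodes the iron carrier transferrin, had 7.57, 1.69, 7.07 and 1.17 RPKM in knockouts and 58.1, 1.34, 0.769 and 2.74 RPKM in wild types. Wild type replicate 2 alone was high, and the covariate value of -1.50 (SE 0.32) was -0.68 without that library.

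Several genes of small p in the covariate fit followed the Mcm mean. Scml4, a Polycomb group protein, had 10.4, 3.93, 9.17 and 2.80 RPKM in knockouts and 3.71, 1.02, 0.250 and 1.10 RPKM in wild types (log2 difference 1.61, SE 0.49, and 1.10, SE 0.21, with the covariate). Its levels were high where the Mcm mean was high within each genotype. The nuclear noncoding RNA Malat1 had the opposite pattern, with 1135, 1759, 1147 and 2408 RPKM in knockouts and 798, 1646, 1538 and 1339 RPKM in wild types (0.26, SE 0.32, and 0.59, SE 0.12). Renbp, an enzyme of amino sugar metabolism, and the acetyltransferase-family gene Cml1 also stood low where the Mcm mean was high, with log2 differences of 0.95 (SE 0.21) and 0.40 (SE 0.09) with the covariate.

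**Figure D4:**
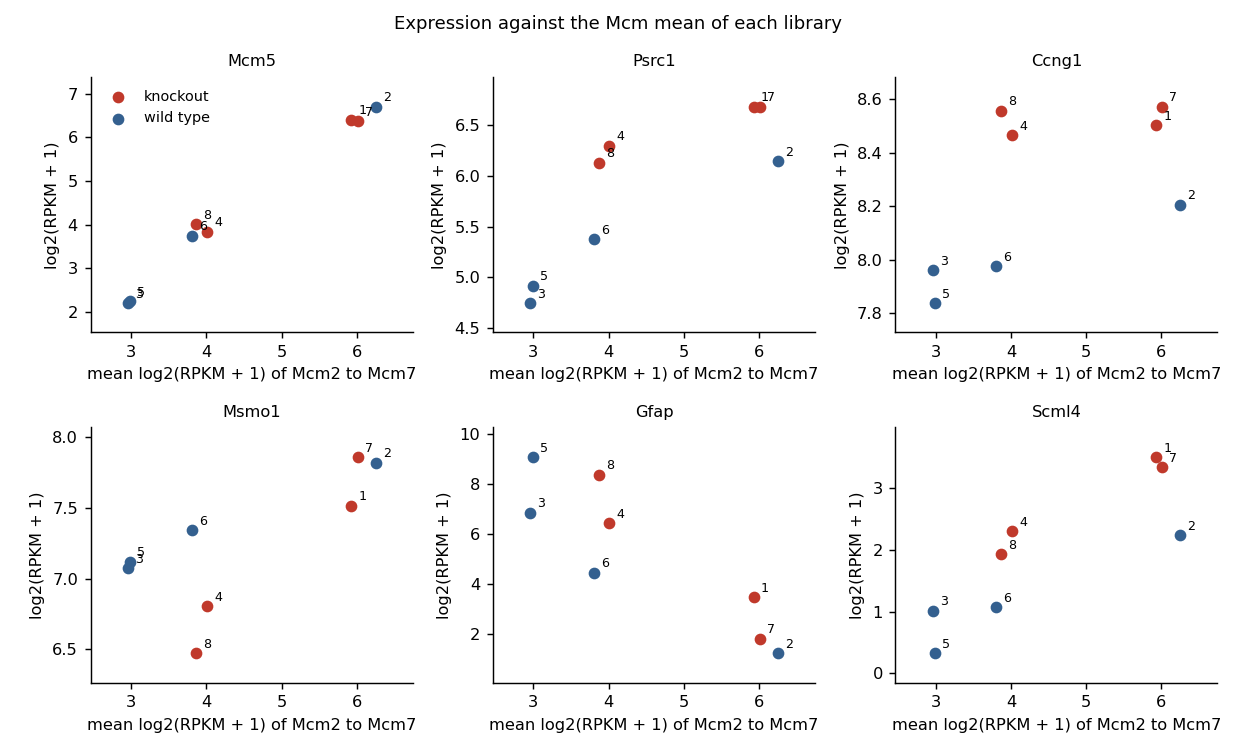
log2(RPKM + 1) of 6 genes against the Mcm mean of each library, knockout in red and wild type in blue, with replicate numbers. Mcm5 follows the mean to which it contributes, Psrc1 and Ccng1 stand higher in knockouts along its range, Msmo1 and Scml4 follow it, Scml4 with knockouts above the wild types of nearest Mcm mean, and Gfap runs against it; wild type replicate 2 is the only wild type at the right.

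Lists of astrocyte and quiescent stem cell genes differed in sign between the fits. Both lists hold Aldoc, Slc1a3, Sox9, Clu, Apoe, Fgfr3 and Aqp4, so they are not separate results. Of 25 astrocyte genes, 3 stood higher in knockouts without the covariate (median -0.28) and 22 with it (median 0.15, and 0.021 without knockout replicate 8). The filament protein Gfap, their leading member, had 9.96, 84.9, 2.47 and 328 RPKM in knockouts and 1.33, 114, 536 and 20.8 RPKM in wild types. Its low libraries, knockout replicates 1 and 7 and wild type replicate 2, were those with the highest Mcm means. Quiescent stem cell genes had medians of -0.25 without (3 of 29 higher) and 0.05 with the covariate (18 of 29), where the covariate median was -0.0077 without knockout replicate 8. The metallothionein Mt2 led them with the covariate (0.46, SE 0.25, and 0.29 without that library). None of these genes passed by limma, and 0 members of either list had an unadjusted p below 0.05 in either fit. Of all genes tested, 1.59% had such a p without and 4.43% with the covariate.

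Oligodendrocyte precursor genes stood lower in both fits, in 14 of 18 without (median -0.31) and 16 of 18 with the covariate (median -0.24). Their median ranged from -0.49 (without knockout replicate 1) to -0.13 (without knockout 7) without the covariate, and from -0.36 to -0.14 with it, for the same libraries left out. Tnr, a matrix glycoprotein of this lineage, lay between 11.6 and 37.4 RPKM in knockouts and between 25.4 and 120 RPKM in wild types, with overlap. Of 16 neuronal genes 10 stood lower without the covariate (median -0.05, and 0.10 without knockout replicate 7), and the adhesion molecule Ncam1 led with 132, 143, 109 and 183 RPKM in knockouts and 133, 239, 281 and 214 RPKM in wild types (-0.58, SE 0.25, and -0.33, SE 0.12, with the covariate).

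In Notch signalling, through which Egfl7 is known to act, 26 of 31 genes stood lower in knockouts (median -0.13), and 23 of 31 with the covariate (median -0.07). Without wild type replicate 2 the Notch medians were -0.22 and -0.10. At an unadjusted p below 0.05 it was 2 lower and 0 higher in each fit. Of all genes tested, 0.573% were lower and 1.01% higher at that threshold without the covariate, and 2.09% and 2.34% with it. Notch1, a receptor of the pathway, lay between 55.0 and 88.6 RPKM in knockouts and between 52.0 and 106 RPKM in wild types. Its log2 difference was -0.11 (SE 0.24) without and 0.11 (SE 0.15) with the covariate, so the sign depended on the fit, and the covariate value was 0.030 without wild type replicate 2. Nrarp, a Notch target that dampens the pathway, was the only member without overlap (3.23% of the 31). Of all genes tested, 0.382% stood lower without overlap. Nrarp is named after its values were seen, at 42.9, 46.2, 26.8 and 28.2 RPKM in knockouts and 51.3, 48.4, 47.3 and 80.7 RPKM in wild types (-0.65, and -0.64 with the covariate). The ligand Dll3, which acts as an inhibitor of the pathway in the mouse, had the smallest covariate p of the list, at 37.7, 44.0, 28.5 and 26.7 RPKM in knockouts and 36.8, 76.4, 80.5 and 50.2 RPKM in wild types (-0.78, SE 0.27, and -0.58, SE 0.23, the covariate value being -0.29 without knockout replicate 8), with overlap. Noggin (Nog), a secreted BMP antagonist, had 1.51, 1.38, 1.29 and 1.55 RPKM in knockouts and 1.40, 4.23, 5.19 and 2.94 RPKM in wild types; wild type replicate 2 alone lay within the range of the knockouts. Of the growth factor pathway genes downstream of EGF and FGF, 16 of 22 stood higher in both fits, with medians of 0.29 without and 0.09 with the covariate. Without wild type replicate 5 these medians were 0.085 and -0.011, so the sign of the covariate median rested on that library.

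The count for cholesterol synthesis depended on the covariate. Without it 10 of 23 stood higher (median -0.03, and -0.25 to 0.29 when 1 library was left out). With it 0 of 23 did (median -0.41), and 7 were lower at an unadjusted p below 0.05. Of all genes tested, 48.5% stood higher without and 42.3% with the covariate, and 2.09% were lower at that threshold with it. Without wild type replicate 2 the covariate median was -0.82, and without knockout replicate 8 it was -0.17. Msmo1, a sterol methyl oxidase, had 182, 111, 231 and 87.7 RPKM in knockouts and 225, 134, 138 and 161 RPKM in wild types (-0.17, SE 0.32, and -0.49, SE 0.17, with the covariate). The covariate value of Msmo1 was -0.87 without wild type replicate 2 and -0.31 without knockout 8. Nucleotide synthesis genes stood higher in 24 of 25 without the covariate (median 0.23, and 0.076 to 0.50 when 1 library was left out) and in 5 of 25 with it (median -0.11). Prps2, which makes the ribose phosphate donor of nucleotides, was among those 5, at 39.3, 30.0, 37.6 and 40.5 RPKM in knockouts and 34.6, 21.7, 22.8 and 21.0 RPKM in wild types (0.56, SE 0.18, and 0.42, SE 0.13). Prkag2, a regulatory subunit of the energy sensor AMPK, had 27.9, 30.6, 22.5 and 30.5 RPKM in knockouts and 24.8, 10.8, 12.0 and 11.8 RPKM in wild types (0.93, SE 0.25, and 0.78, SE 0.23). In both genes wild type replicate 2 was the high wild type, and without it the covariate values were 0.64 for Prps2 and 1.40 for Prkag2. Without knockout replicate 8 that of Prps2 was 0.26.

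Ciliary transport genes stood higher in 20 of 30 without (median 0.03, and -0.025 without knockout replicate 4) and 24 of 30 with the covariate (median 0.11). Wdr35, a subunit of the intraflagellar transport complex, led the list without overlap, at 26.4, 24.7, 24.4 and 24.3 RPKM in knockouts and 20.3, 15.7, 18.8 and 18.9 RPKM in wild types (0.42, SE 0.10, and 0.37, SE 0.09). Ccdc176, a basal body protein, had 2.35, 2.49, 2.80 and 2.57 RPKM in knockouts and 1.74, 1.52, 1.01 and 1.02 RPKM in wild types, also without overlap (0.62, SE 0.16).

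**Figure D5:**
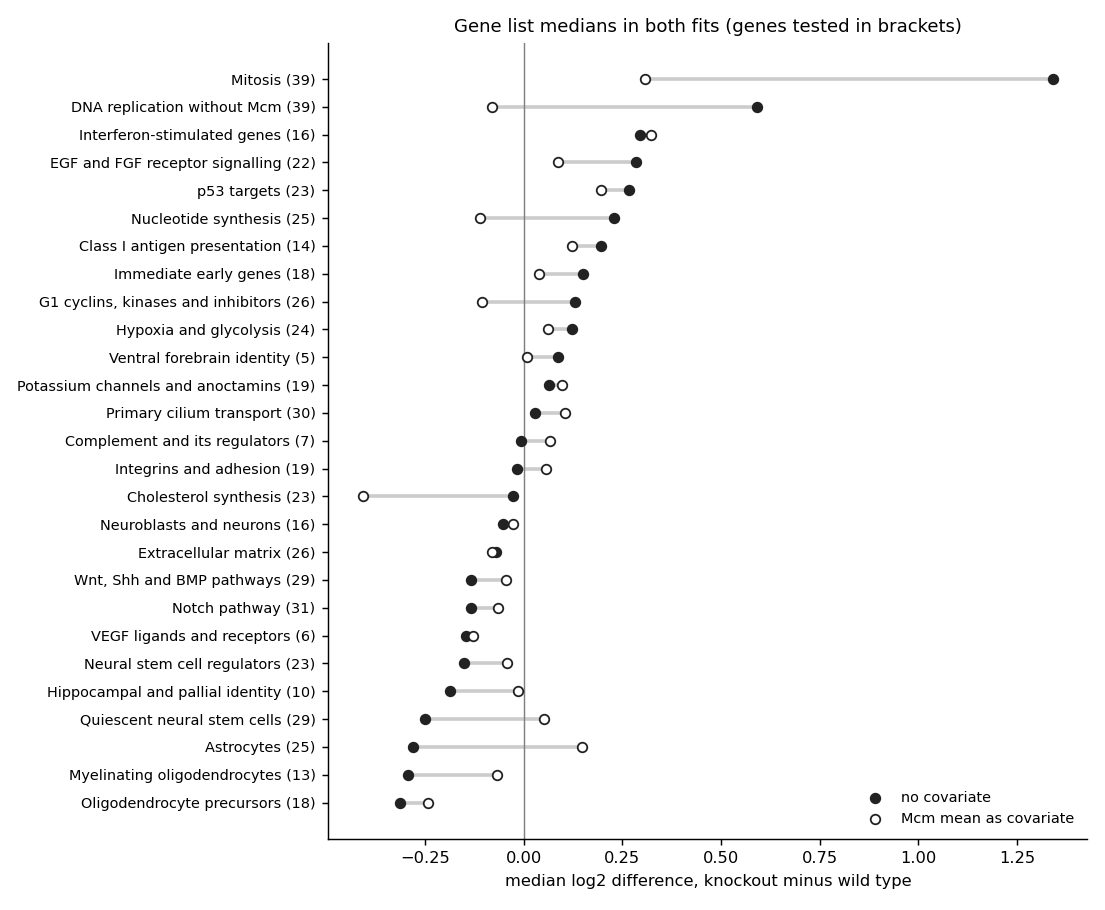
Median log2 difference, knockout minus wild type, of each gene list with at least 5 genes tested, without a covariate (filled) and with the Mcm mean as covariate (open). With the covariate the mitosis median was 0.31 and the cholesterol median -0.41, the astrocyte and quiescent stem cell medians crossed 0, and the p53 target and interferon medians stayed between 0.20 and 0.32.

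The same contrast in first-round hippocampal spheres used 3 male knockout and 3 female wild-type libraries of culture day 5, so genotype and donor sex cannot be told apart there, and genes of the X and Y chromosomes were left out of the comparison. The knockout effect differed between the rounds in 1 of 13122 genes (0.00762%), Mir6919, in each fit, a gene listed at 0 in all first-round libraries and admitted by the filter only through the second-round knockouts. At an unadjusted p below 0.05 it was 216 genes (1.65%) without and 662 (5.04%) with the covariate. Without wild type replicate 2 of the second round both fits called 2 genes, and the added one was Prkag2, whose log2 difference was 0.93 in the second and -0.24 in the first round. Psrc1 had 1.15 in the second and 0.19 in the first round, Ano3 0.78 and 0.18, Ccng1 0.53 and 0.30, Cdkn1a 0.66 and 0.23, Tap1 0.55 and 0.11, Svop 0.69 and -0.02, Megf11 -0.64 and -0.21, and Cux1 -0.32 and -0.05. Other genes differed in sign, among them Dcxr with 0.54 and -0.12, Ifi27l2a with 0.91 and -0.15, and Fas with 0.67 and -0.24. With the covariate Psrc1 did too, with 0.83 and -0.03. Here the second-round value came from the fit of the second-round libraries alone. The first-round value came from a fit of both rounds that share their dependence on the Mcm mean. Of 48 autosomal genes picked by the naming rule, 33 had the same sign in both rounds without and 23 with the covariate. The covariate signs of the rounds came from these different fits. The 48 include the Mcm genes, which make the covariate and are no result of the covariate fit. Many others were picked by their second-round p-values, and the share over all genes was not computed, so both counts are descriptive. With all libraries, no difference between rounds passed for any of these genes. Of the p53 targets, 13 of 23 stood higher in the first round (median 0.02), of the interferon-stimulated genes 4 of 16 (median -0.14), and of the cholesterol genes 23 of 23 (median 0.29).

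Within 5 Mb of Egfl7 on chromosome 2, 145 genes were tested, of which 65 stood higher (median -0.01), 2 had an unadjusted p below 0.05 without and 9 with the covariate, and 0 were called. Of all genes tested, 1.59% had such a p without and 4.43% with the covariate.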

How the data were processed

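The authors deposited a linear RPKM value for each gene, as named in the file headers, with reads assigned on GRCm38 per the submitters' processing notes, which name FastQC 0.11.5 and DESeq2. Per the labels' protocols, ribosomal RNA was removed from total RNA, and stranded libraries were captured with mouse exon baits and read as pairs of 100 bases. Aligner, counter and strand setting: not given in the sources used here. A gene without a value was read as 0.

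Values were fitted as log2(RPKM + 1), a scale that understates changes of low genes, with limma 3.58.1 in R 4.3.3 (lmFit, eBayes with trend and robust) on the 8 libraries, with and without the Mcm mean; p-values are two-sided and adjusted by the Benjamini-Hochberg method over all genes tested, with a threshold of 0.05. The rounds were compared by an interaction contrast. Egfl7 and the Mcm mean were tested by exact permutation. Scripts were tested on simulated data. Depth came from the smallest steps of short genes; 93.2% to 98.2% of low values were whole reads within 0.05. Read floors and counts cover counting error only, and those of Egfl7 rest on a length chosen from its own wild-type values.

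Genes named are Egfl7, Notch1, Mcm2 to Mcm7, the 15 of smallest p in each fit (where fewer than 5 were called), and of each list with at least 5 genes tested the member of smallest p with the covariate; predicted, microRNA and other short RNA genes were counted only, except where stated, and 1 gene that the rule names is not reported here. The members and gene lists were chosen with earlier results of these data known, so lists are described by counts and medians without a test. Alternatives were other pseudocounts, filters, scalings, weights, covariates and leaving out each replicate.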

Additional observations from a re-analysis of the deposited data

Results flagged for a closer look

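In 3 of 106 groups of 4 values examined, 1 library stood far from the other 3, and chance gives such a gap in about 1 group in 20. All 3 were wild type replicate 2: 24.8 RPKM of Prkag2 (4.69 on the log2 scale), against 10.8 to 12.0 in the other wild types; 34.6 RPKM of Prps2 (5.15), against 21.0 to 22.8; and 47.8 RPKM of Mcm7 (5.61), against 14.7 to 15.4. The knockout effect on Mir6919 differed between second-round and first-round spheres by 2.37 (adjusted p = 0.000853 by limma) and with the Mcm covariate by 2.36 (adjusted p = 0.00109). It was listed at 0 in all first-round libraries, no second-round library held more than 3 reads of it, and the filter admitted it only through the second-round knockouts, so this difference restates that selection.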

How the results depend on the processing

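No paired analysis was possible because the knockout replicates 1, 4, 7 and 8 and the wild type replicates 2, 3, 5 and 6 share no number. The count of called genes without and with the covariate was 2 and 2 with a pseudocount of 0.1 (Mir344i added), 0 and 0 at 5 RPKM in 4 libraries or among protein-coding genes, and 4 and 5 with the spread of all 20 libraries. Without a filter on low values each fit still called 1. With arrayWeights the covariate fit called 0. Leaving out 1 library gave 0 to 1 with the covariate, the 0 arising where knockout 1, knockout 8 or wild type 2 was left out. Unadjusted p-values below 0.05 without the covariate numbered 505 with all 20 libraries and 689 with arrayWeights. For the difference between rounds each fit called 3 with all 20 libraries, 5 with a pseudocount of 0.1, and 1 to 2 without 1 library. With the covariate, the VEGF list median was -0.27 with arrayWeights, and the DNA replication median -0.16 with a mitosis and 0.036 with a first-component covariate. Without 1 library, medians ranged from -0.82 to -0.17 for cholesterol synthesis and 0.17 to 0.59 for interferon genes (with the covariate), and from 0.025 to 0.17 for potassium channels and anoctamins and -0.19 to 0.033 for Wnt, Shh and BMP (without it). Without 1 library, Notch1 without the covariate ranged from -0.31 to 0.030 (above 0 where knockout 7 or wild type 6 was left out) and Nrp1 with the covariate from -0.46 to 0.0041 (above 0 without knockout replicate 4), and Rrm2 was -0.0019 with the mitosis covariate. The causes were not tested. Genes of few reads are limited by depth.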

Other observations

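No gene of the following lists passed. Hypoxia and glycolysis genes stood higher in knockouts in 18 of 24 in both fits, with medians of 0.12 without and 0.06 with the Mcm covariate (0.052 and 0.0092 without wild type replicate 5). Immediate early transcription factors stood higher in 13 of 18 (median 0.15) without and 12 of 18 (median 0.04, and -0.014 without wild type replicate 6) with it; Junb, a subunit of the AP-1 factor, led them at 8.85, 7.65, 6.20 and 13.1 RPKM in knockouts and 5.92, 5.26, 6.65 and 4.08 RPKM in wild types, with overlap. Among neural stem cell regulators, the filament protein Vim had 1700, 1466, 1439 and 1567 RPKM in knockouts and 1493, 974, 1262 and 1092 RPKM in wild types, where wild type replicate 2 lay within the knockout range. Of 26 extracellular matrix genes 16 stood lower in both fits, with medians of -0.07 and -0.08; the median without the covariate was above 0 without wild type replicate 2 (0.020) or 3 (0.045). Of 10 genes of hippocampal and pallial identity, 8 stood lower without (median -0.19) and 5 with the covariate (median -0.02, and 0.022 without knockout replicate 7), led by the transcription factor Lhx2 at 17.5 ± 3.65 RPKM in knockouts and 21.0 ± 5.25 RPKM in wild types (SD, n = 4 each).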
